A study of Mus musculus with 4 samples.

Results

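The kinesin motor genes were described in cells of the E14.5 mouse basal telencephalon that had been sorted for tdTomato fluorescence. Members were all rows of the gene table named *Kif* or *Kifc* followed by a number and optional letters, which gave 44 of 56883 genes. They were split into 12 mitotic kinesins (*Kif2c*, *Kif4*, *Kif11*, *Kif14*, *Kif15*, *Kif18a*, *Kif18b*, *Kif20a*, *Kif20b*, *Kif22*, *Kif23* and *Kifc1*) and 32 others. The control embryos carried *Sst-Cre* and a Cre-dependent *tdTomato* reporter, on a C57BL/6J background. The *Dnmt1* KO embryos carried both alleles as well and, in addition, floxed *Dnmt1* (*Sst-Cre/tdTomato/Dnmt1 loxP2*), so the driver and the reporter were shared by both genotypes. Cre was placed behind the *Sst* coding sequence and acts in postmitotic cells that express somatostatin. Each genotype had 2 libraries, each pooled from several embryos whose sex was not distinguished. Limma p-values therefore rest on spread between pools, not between embryos, with each gene's variance drawn toward a trend over all tested genes. Values are normalized counts, that is, reads divided by 1 size factor per library, and the libraries held 8376711 and 7276779 reads (control) and 7744944 and 6970247 reads (*Dnmt1* KO).

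Kinesins are motor proteins that use ATP to move along microtubules or to take them apart at their ends. In dividing cells a specialised set builds the bipolar spindle, moves chromosomes and closes the midbody, and these genes are switched on mainly in G2 and mitosis. In neurons, which have left the cell cycle, other kinesins carry vesicles, mitochondria and RNA into axons and dendrites and set microtubule length. Migrating interneurons use both kinds of microtubule work, transport and remodelling, to extend a leading process and move the nucleus.

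*Dnmt1*, the targeted gene, read 2238 and 2341 in control and 2164 and 2210 in *Dnmt1* KO (log2 fold change -0.07 ± 0.05 SE, limma adjusted p = 0.461). A count over the whole gene includes exons that the deletion leaves in place, so it does not check the deletion of the floxed exons. Of the 44 members, 37 reached the filter, a mean of 10 normalized counts over the libraries, and were tested, namely all 12 mitotic kinesins and 25 others. The tests were made by limma on log2(normalized count + 1) over 14323 genes with Benjamini-Hochberg adjustment, and genes with an adjusted p below 0.05 were called. Fold changes are on that scale, *Dnmt1* KO minus control. Errors are the SE from limma with 2 libraries per genotype. Limma draws each variance toward a trend over all tested genes, so an error is not that gene's own replicate spread.

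The mitotic kinesins were lower in *Dnmt1* KO. Of the 12, 9 were called lower, and all 12 had both *Dnmt1* KO libraries below both control libraries. Their median log2 fold change was -0.58 (range -0.78 to -0.20), against -0.003 over all genes tested. Of all tested genes, 8.99% were called lower in *Dnmt1* KO and 29.0% had both *Dnmt1* KO libraries below both controls. None of the 12 was called higher, against 8.3% of all genes. Their summed counts were 2991.5 and 3145.4 in control and 2126.6 and 2117.4 in *Dnmt1* KO, a fall of 30.8%. In sorted cells, fewer dividing cells in the pool and less of these RNAs per cell cannot be told apart.

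**Figure D1:**
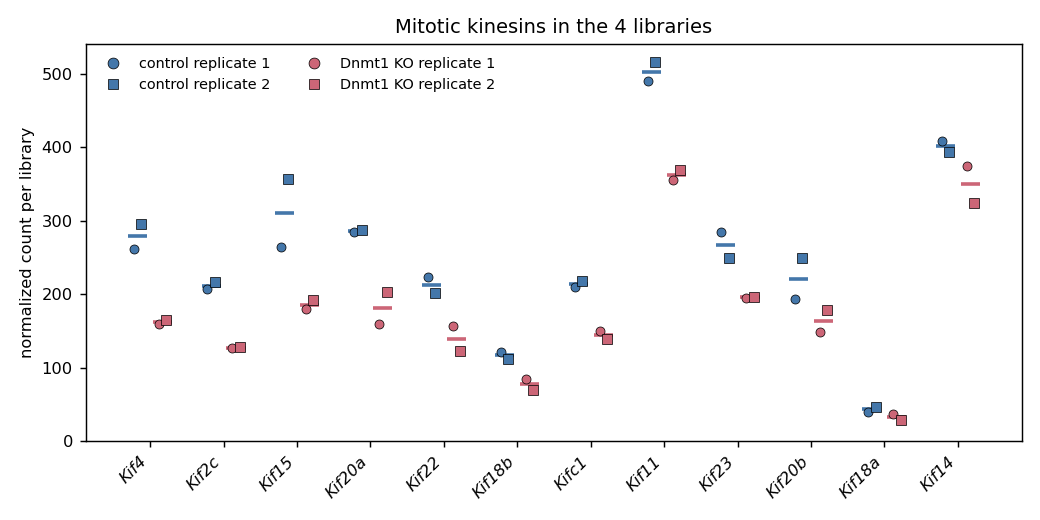
Normalized count of each of the 12 mitotic kinesins (y axis, linear, from 0) in each library, with circles for replicate 1, squares for replicate 2, blue for control, red for *Dnmt1* KO and bars for the mean of 2. In every gene both *Dnmt1* KO points lie below both control points, with the largest difference between the means, relative to level, in *Kif4* and the smallest in *Kif14*.

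The motors that build the spindle were all called lower. *Kif11* (chr19:37364799-37410307, GRCm39), the tetrameric motor that pushes spindle poles apart, read 490.4 and 516.6 in control and 355.1 and 369.3 in *Dnmt1* KO. It was the mitotic kinesin with the highest counts, and its fall was called (log2 fold change -0.47 ± 0.09, limma adjusted p = 0.0023). *Kif15* (chr9:122780111-122847806), which can assist *Kif11* in keeping the spindle bipolar, read 264.0 and 357.3 in control and 179.5 and 192.3 in *Dnmt1* KO. Its control libraries were further apart than those of any other called mitotic kinesin. The fall of 0.72 ± 0.14 (log2) had a limma adjusted p of 0.0024, and without control replicate 2 it missed the threshold (adjusted p = 0.054). *Kifc1* (chr17:34094633-34109769), a minus-end directed motor that bundles spindle poles, read 210.3 and 218.5 in control and 149.9 and 138.8 in *Dnmt1* KO. It was called lower (-0.57 ± 0.13, limma adjusted p = 0.0084), but this call was lost without control replicate 2 (adjusted p = 0.0658). It shares 31.7% of its 75-base stretches with *Kifc5b*, so counts of these 2 genes could be split by the counting and are uncertain.

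Chromosome-binding and microtubule-shortening motors fell too. *Kif4* (chrX:99669343-99770946), a chromokinesin that acts on chromosome arms and at the midzone, read 262.2 and 296.1 in control and 159.8 and 165.0 in *Dnmt1* KO. Its log2 fold change of -0.78 ± 0.13 was the largest among the 37 kinesins tested (limma adjusted p = 0.00056). *Kif22* (chr7:126626898-126641643), the other chromokinesin, read 223.7 and 201.1 in control and 156.8 and 122.4 in *Dnmt1* KO. It was called lower (-0.61 ± 0.15, limma adjusted p = 0.0112), but not without control replicate 1 (adjusted p = 0.0995) or without *Dnmt1* KO replicate 2 (adjusted p = 0.0797). *Kif2c* (chr4:117016830-117039836), which removes tubulin from microtubule ends at centromeres, had close replicates, with 206.7 and 216.4 in control and 126.3 and 127.8 in *Dnmt1* KO. Its fall of 0.73 ± 0.14 (log2, limma adjusted p = 0.0018) was the second largest of the family.

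The kinesin-8 motors, which limit the length of spindle microtubules, were the least abundant mitotic kinesins by count. *Kif18b* (chr11:102796348-102815956) read 121.7 and 112.3 in control and 84.8 and 69.9 in *Dnmt1* KO. Its call (-0.60 ± 0.19, limma adjusted p = 0.0383) held in 1 of the 4 fits that left out a library: it was lost without control replicate 1 (adjusted p = 0.187), without control replicate 2 (adjusted p = 0.113) and without *Dnmt1* KO replicate 2 (adjusted p = 0.181). *Kif18a* (chr2:109111083-109173023) read only 40.3 and 47.0 in control and 36.5 and 28.4 in *Dnmt1* KO. Those libraries did not overlap, but the difference of -0.42 ± 0.29 was not called (limma adjusted p = 0.362).

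The motors of the midzone and of cytokinesis split into called and uncalled genes. *Kif20a* (chromosome 18), which carries the chromosomal passenger complex to the midzone, read 285.5 and 287.9 in control and 159.8 and 203.2 in *Dnmt1* KO. It was called lower (-0.67 ± 0.13, limma adjusted p = 0.0029). On the opposite strand, exons of *Cdc23* cover 54.8% of its exonic bases, and since it is not stated whether strand was used in counting, reads of the 2 genes may be mixed. *Kif23* (chr9:61823187-61854074), the motor of centralspindlin, read 284.6 and 249.1 in control and 195.3 and 196.7 in *Dnmt1* KO. It was called lower as well (-0.44 ± 0.12, limma adjusted p = 0.0220), except without control replicate 1 (adjusted p = 0.167).

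The other two cytokinesis motors were not called. *Kif20b* (chr19:34899752-34953149) read 193.3 and 249.1 in control and 148.0 and 179.2 in *Dnmt1* KO (-0.43 ± 0.15, limma adjusted p = 0.0680). It sat near the threshold, and it was called without control replicate 1 (adjusted p = 0.0386), without *Dnmt1* KO replicate 2 (adjusted p = 0.0131) and once a trend over transcript length and GC content had been removed from each library (-0.61, adjusted p = 0.0133). *Kif14* (chr1:136394081-136459249), a partner of citron kinase in abscission, read 409.0 and 394.1 in control and 374.8 and 324.5 in *Dnmt1* KO. Its difference of -0.20 ± 0.10 was the smallest of the 12 (limma adjusted p = 0.204), although by count it was second only to *Kif11* among them.

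Promoters of the mitotic kinesins were compared because genes of G2 and mitosis often carry a cell cycle homology element (CHR) near the start of transcription, with CCAAT boxes before it. RefSeq promoters (GRCm38.p6, 250 bases before to 50 after the start) were found for 33 of 43 protein-coding members, 11 of them mitotic. The CHR letters TTTGAA or TTCGAA, on either strand, were in 10 of the 11 mitotic promoters, in 5 of the 22 other kinesin genes matched (*Kif1a*, *Kif24*, *Kif26b*, *Kif27* and *Kifc5b*) and in 21.7% of 27025 genes with a promoter. All 10 mitotic matches were TTTGAA or its reverse complement TTCAAA, and *Kif18a* had none. Windows of 30 bases around the match are shown on the strand of the gene, 5′ to 3′, with the match in capitals, since most of the mitotic kinesins shared these letters.
Kif11: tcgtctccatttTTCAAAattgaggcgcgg
Kif15: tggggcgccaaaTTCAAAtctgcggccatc
Kif22: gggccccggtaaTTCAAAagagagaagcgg
Kifc1: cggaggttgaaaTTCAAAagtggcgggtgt
Kif23: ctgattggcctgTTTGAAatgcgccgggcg
Kif18b: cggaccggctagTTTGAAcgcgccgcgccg
Kif20b: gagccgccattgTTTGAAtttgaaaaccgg
Kif4: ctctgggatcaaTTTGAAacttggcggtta
Kif2c: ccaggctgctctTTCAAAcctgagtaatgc
Kif14: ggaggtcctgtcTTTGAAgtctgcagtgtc

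The windows lay, in GRCm38.p6, at chr19:37376351-37376380 on the plus strand for *Kif11*, chr9:122951050-122951079 on the plus strand for *Kif15* and chr7:127042420-127042449 on the minus strand for *Kif22*. Those of *Kifc1*, *Kif23* and *Kif18b* lay on the minus strand at chr17:33890615-33890644, chr9:61946780-61946809 and chr11:102925104-102925133. The *Kif20b* window (chr19:34922353-34922382) and the *Kif4* window (chrX:100626072-100626101) were on the plus strand. *Kif2c* (chr4:117178858-117178887, minus strand) and *Kif14* (chr1:136467608-136467637, plus strand) had their matches further from the start.

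In 8 of the 10 genes a match began between 60 bases before the start and the end of the window, at -19 in *Kif11* and *Kif15*, -17 in *Kif22*, 2 in *Kifc1*, 3 in *Kif23*, 4 in *Kif18b*, 8 in *Kif20b* and 20 in *Kif4*. Within this range 6.79% of all genes held the letters, and so did 4 of the 22 other kinesins. The limit of 60 bases was set after the positions were seen. *Kif2c*, with the second largest fall of the family, had its match at -103, and *Kif14*, with the smallest difference among mitotic kinesins, at -228. *Kif15* and *Kif22* had a second match, at -234 and -215. *Kif20b* carried the letters in tandem, the second copy directly after the first.

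CCAAT, on either strand, was in 7 of the 11 mitotic promoters, in 9 of the 22 other kinesins and in 41.1% of all genes. In 6 mitotic genes (*Kif4*, *Kif11*, *Kif18b*, *Kif22*, *Kif23* and *Kifc1*) a copy came before the CHR letters, as it did in 4 of the 22 other kinesins (*Kif24*, *Kif26b*, *Kif27* and *Kifc5b*) and in 4.53% of all genes. Only genes with CHR letters could enter this count, namely 10 mitotic and 5 other kinesins. In the mitotic genes the spacing between the CCAAT copy and the CHR letters ran from 4 bases in *Kif23* to 41 bases in *Kifc1*. The E2F-like letters TTTGGCGC, TTTCCCGC, TTTGCCGC or TTTCGCGC were in *Kif15* and *Kif18a*, 2 of 11, against 2.6% of all genes and 0 of the 22 other kinesins. In *Kif15* they began at -27 and ended directly before the CHR letters. CHR and CCAAT letters can share 1 base where they meet. These are matches of letters and no test was made of them.

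**Figure D2:**
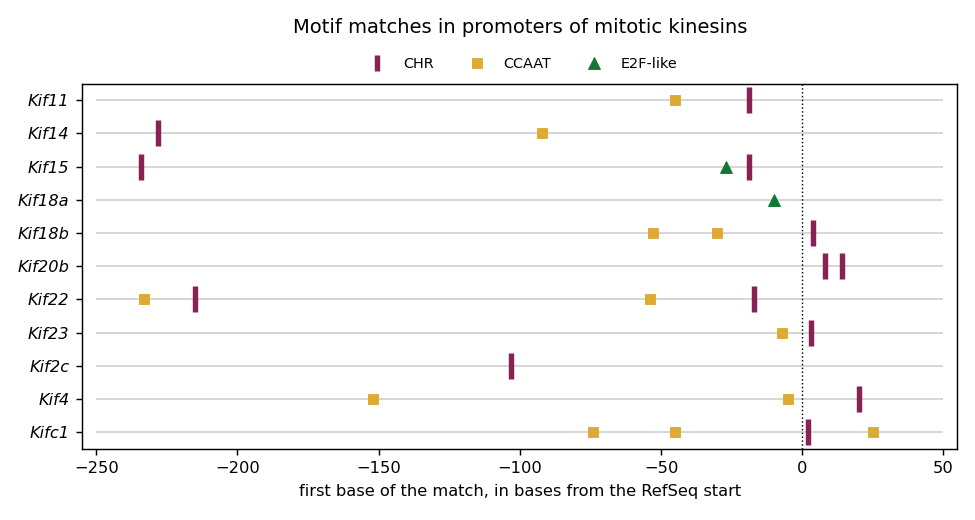
Position of each motif match (x axis, bases from the RefSeq start, first base of the match) in the promoters of 11 mitotic kinesins, 1 line per gene, with purple bars for CHR letters, yellow squares for CCAAT and green triangles for E2F-like letters. In 8 genes a CHR match lies between -19 and 20, *Kif15* and *Kif22* have a further match at -234 and -215, *Kif2c* and *Kif14* have theirs only further upstream, at -103 and -228, and *Kif18a* has none.

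Partners of these motors moved the same way. Of 25 tested spindle and midzone genes, 21 were called lower and 0 higher, against 8.99% and 8.3% of all tested genes. Their median log2 fold change was -0.66 and their sum was 28.7% lower in *Dnmt1* KO. *Aurkb*, the kinase of the passenger complex that *Kif20a* carries, read 169.1 and 138.8 in control and 48.3 and 83.0 in *Dnmt1* KO (-1.26, limma adjusted p = 0.0014). *Aurka*, the spindle pole kinase, read 135.1 and 162.3 in control and 71.0 and 89.6 in *Dnmt1* KO (-0.88, limma adjusted p = 0.0036; without control replicate 2, 0.0648). *Prc1*, the midzone bundler on which *Kif4* acts, fell from 551.2 and 511.5 to 298.9 and 281.9 (-0.87, limma adjusted p = 1.80e-05). *Cenpe*, named after its values were seen because it encodes the kinetochore kinesin that carries no *Kif* symbol, read 530.7 and 520.7 in control and 365.9 and 372.6 in *Dnmt1* KO (-0.51, limma adjusted p = 0.0011). It thus lay within the range of the 12 mitotic kinesins.

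Markers of other cells that a sort can hold were mostly lower in the same libraries, and so were S phase genes, which mark no cell type. Over all tested genes 8.99% were called lower and 8.3% higher. Of 9 radial glia markers 7 were called lower and 1 higher (log2 fold change 0.397). Their sum fell from 11733 and 11896 to 7210.3 and 7495.2, with *Vim* the most abundant. Of 17 S phase genes 10 were called lower and 0 higher (sum 25.4% lower). All 6 tested erythroid markers were called lower (sum 2410.8 and 2230.6 in control, 560.3 and 568.2 in *Dnmt1* KO, *Hba-a2* highest), as were 7 of 8 vascular and microglial markers (sum 1180.3 and 1069.9 against 538.6 and 513.5, *Col4a1* highest). Pallial excitatory markers, led by *Tbr1*, had 6 of 7 called lower, with sums of 2756.2 and 2774.8 in control and 1526.9 and 1343.9 in *Dnmt1* KO. All 9 *Sst* interneuron markers were called higher, and their sum rose from 17961 and 18432 to 27978 and 28123, with *Sst* itself the most abundant. The paper lists *Lhx6*, *Sox6*, *Satb1* and *Maf* of this set as increased in *Dnmt1* KO cells of the basal telencephalon. The set was chosen with earlier results known, so its count is not independent support. No marker of these lists was at 0 in all libraries. The part of such cells in the lower mitotic kinesin counts was not tested.

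**Figure D3:**
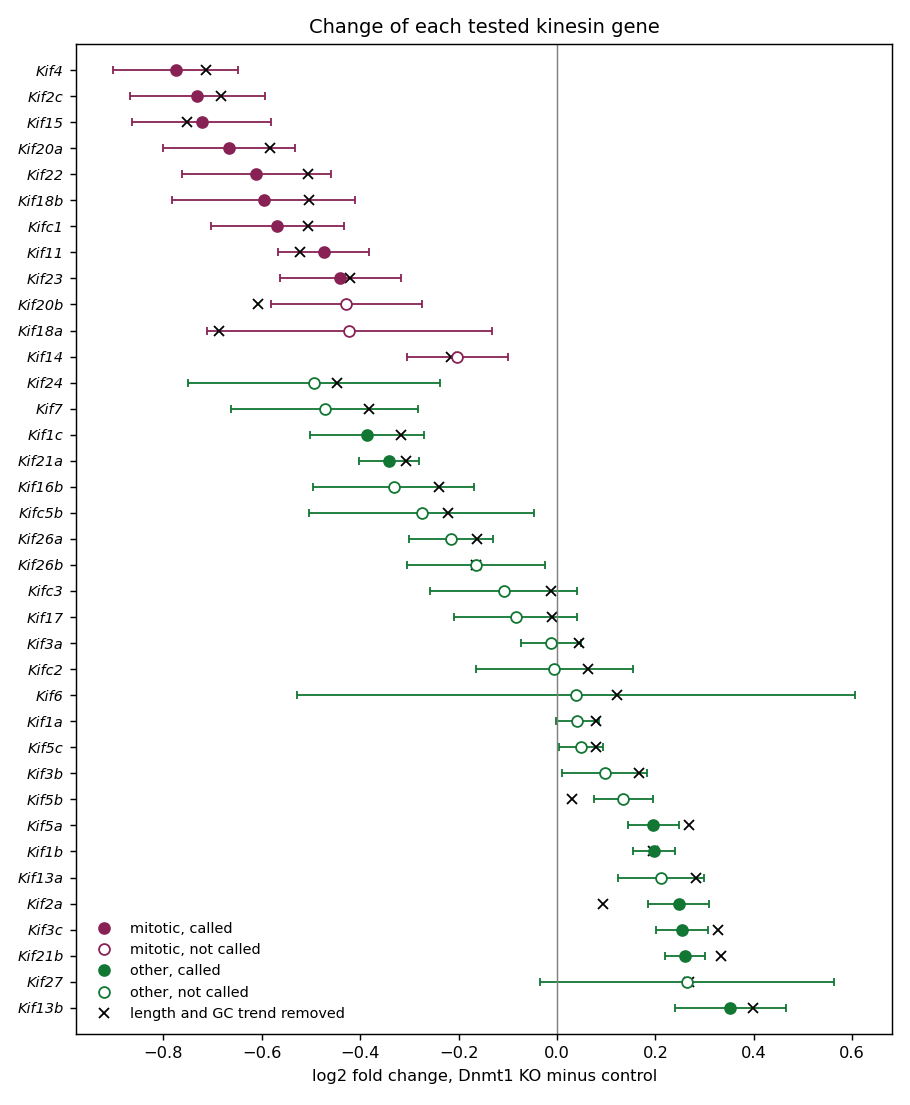
Log2 fold change (x axis, *Dnmt1* KO minus control) with its SE from limma for the 37 tested kinesins. Mitotic kinesins are in purple and others in green, filled where called, with crosses for the value after a length and GC trend was removed. All 12 mitotic points lie left of 0, while the 25 others spread from -0.49 to 0.35.

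The other kinesins did not move as a block. Of the 25 tested, 2 were called lower (8.99% of all genes), 6 were called higher (8.3% of all genes) and 17 were not called. Both *Dnmt1* KO libraries lay below both controls in 7 and above both in 11, where 29.0% and 28.4% of all genes did so. The median log2 fold change was 0.04 (range -0.49 to 0.35). The genes called higher were mostly abundant ones, and the summed count of the 25 went from 39430 and 39947 in control to 42862 and 42702 in *Dnmt1* KO, a rise of 7.79%.

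The kinesin-4 pair *Kif21a* and *Kif21b*, motors that restrain microtubule growth in neurites, moved in opposite directions. *Kif21b* (chr1:136059098-136105763) read 6652 and 6741 in control and 8123 and 7926 in *Dnmt1* KO (0.26 ± 0.04, limma adjusted p = 0.00037). *Kif21a* (chr15:90817437-90934218) read 2472 and 2765 in control and 2100 and 2028 in *Dnmt1* KO (-0.34 ± 0.06, limma adjusted p = 0.0011). Both calls held in all 4 fits that left out a library. Per kb of transcript, *Kif21b* was 2.904 and 2.63 times *Kif21a* in control and 4.173 and 4.216 times in *Dnmt1* KO. The 2 genotypes did not overlap in this ratio, which follows from the opposite changes of the 2 genes.

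Kinesin-3 motors, which carry synaptic vesicle precursors and other cargo along axons, held 3 called genes. *Kif1b* (chr4:149260618-149410343) read 5973 and 6115 in control and 6834 and 7023 in *Dnmt1* KO (0.20 ± 0.04, limma adjusted p = 0.0043), and its call held without each library in turn. *Kif1c* (chr11:70591046-70622790), a wider expressed relative, went the other way, with 309.6 and 277.7 in control and 229.8 and 218.5 in *Dnmt1* KO (-0.39 ± 0.12, limma adjusted p = 0.0322). That call held in 1 of 4 such fits, being lost without control replicate 1 (adjusted p = 0.192), control replicate 2 (0.0519) or *Dnmt1* KO replicate 2 (0.109). Removing the length and GC trend also ended it (adjusted p = 0.0726). *Kif1b* per kb was 12 and 13.69 times *Kif1c* in control and 18.49 and 19.99 times in *Dnmt1* KO.

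*Kif13b* (chr14:64884714-65047073), the third, read 250.6 and 225.6 in control and 302.8 and 304.8 in *Dnmt1* KO. Its replicates were close within *Dnmt1* KO, and at 0.35 ± 0.11 it had the largest rise of the family (limma adjusted p = 0.0433). The call was lost in every fit that left out a library, with adjusted p values of 0.0557 and 0.214 without control replicates 1 and 2, and 0.106 and 0.122 without *Dnmt1* KO replicates 1 and 2. *Kif1a* (chr1:92942641-93029752), the main carrier of synaptic vesicle precursors, read 5145 and 5029 in control and 5226 and 5244 in *Dnmt1* KO (0.04 ± 0.04, limma adjusted p = 0.572). *Kif13a* (chr13:46902563-47083687), an endosome motor, read 443.9 and 452.3 in control and 504.0 and 534.3 in *Dnmt1* KO and was not called (0.21 ± 0.09, limma adjusted p = 0.117). With the trend removed it was (0.28, adjusted p = 0.0379).

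Of the kinesin-1 heavy chains, the general anterograde transporters of axons, 1 of 3 was called. *Kif5a* (chr10:127060993-127103180), the neuronal form, read 2687 and 2625 in control and 2959 and 3126 in *Dnmt1* KO (0.20 ± 0.05, limma adjusted p = 0.0165). It was not called without control replicate 2 (adjusted p = 0.0797) or without *Dnmt1* KO replicate 2 (adjusted p = 0.160). *Kif5b* (chromosome 18), the ubiquitous form, read 1343 and 1370 in control and 1511 and 1468 in *Dnmt1* KO (0.13 ± 0.06, limma adjusted p = 0.147). *Kif5c* (chr2:49509265-49664791), also neuronal, overlapped between genotypes, with 6477 and 6831 in control and 7029 and 6734 in *Dnmt1* KO (0.05 ± 0.04, limma adjusted p = 0.511). The ratio of *Kif5a* to *Kif5b* per kb was 1.729 and 1.656 in control and 1.693 and 1.84 in *Dnmt1* KO, so this ratio overlapped between genotypes.

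Kinesin-2 motors work in cilia and in axonal transport, *Kif3a* pairing with either *Kif3b* or *Kif3c*. *Kif3c* (chr12:3400262-3456494), the partner used mainly in neurons, read 2328 and 2363 in control and 2719 and 2878 in *Dnmt1* KO. It was called higher (0.25 ± 0.05, limma adjusted p = 0.0037), also without each library in turn, but exons of an opposite-strand gene, *1110002L01Rik*, cover 34.6% of its exonic bases. *Kif3b* (chr2:153133325-153175310), the ciliary partner, read 512.8 and 555.4 in control and 585.9 and 556.1 in *Dnmt1* KO (0.10 ± 0.09, limma adjusted p = 0.496). *Kif3a* (chr11:53458168-53495071) was level, at 1373 and 1391 in control and 1385 and 1356 in *Dnmt1* KO (-0.01 ± 0.06, limma adjusted p = 0.923). *Kif17* (chr4:137977746-138031605), a dendritic transporter, had wide replicates in *Dnmt1* KO, 436.0 and 331.1, beside 436.7 and 371.6 in control (-0.08 ± 0.13, limma adjusted p = 0.709).

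*Kif2a* (chr13:107094384-107158912), a microtubule depolymerase that prunes axon branches and a relative of the mitotic *Kif2c*, was higher, with 1278 and 1245 in control and 1481 and 1514 in *Dnmt1* KO (0.25 ± 0.06, limma adjusted p = 0.0111). The rise was not called after the length and GC trend was removed (0.09, adjusted p = 0.341), nor without control replicate 2 (adjusted p = 0.0569) or *Dnmt1* KO replicate 2 (adjusted p = 0.0643). Exons of the opposite-strand gene *Dimt1* cover 41.1% of its exonic bases. Per kb, *Kif2a* was 2.575 and 2.397 times *Kif2c* in control and 4.884 and 4.934 times in *Dnmt1* KO. *Kif26a* (chr12:112112642-112148181), an atypical kinesin without motor activity, read 596.0 and 583.9 in control and 489.2 and 527.7 in *Dnmt1* KO and was not called (-0.21 ± 0.09, limma adjusted p = 0.0981).

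**Figure D4:**
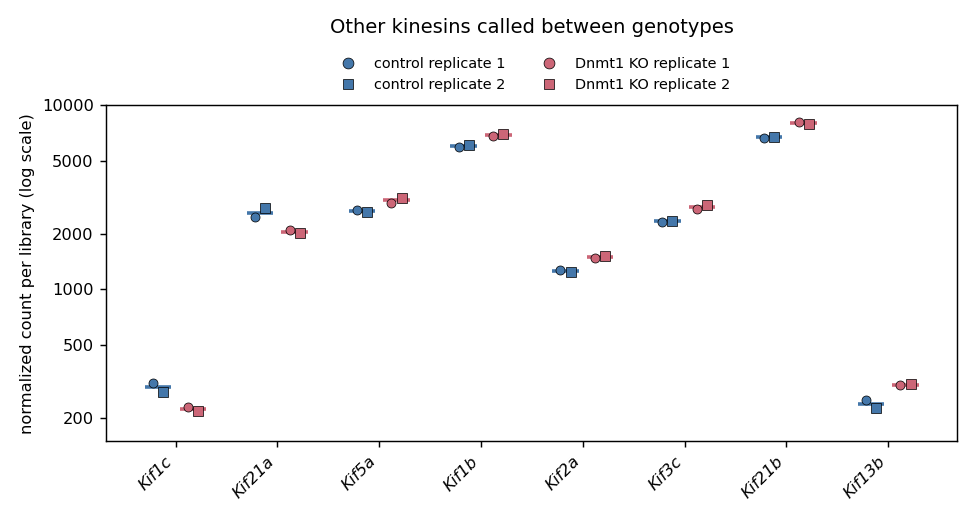
Normalized count (y axis, log scale) of the 8 kinesins outside the mitotic list that were called, with circles for replicate 1, squares for replicate 2, blue for control, red for *Dnmt1* KO and bars for the mean of 2. *Kif1c* and *Kif21a* are lower in both *Dnmt1* KO libraries, and the 6 others are higher in both.

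The remaining 9 tested kinesins (*Kif6*, *Kif7*, *Kif16b*, *Kif24*, *Kif26b*, *Kif27*, *Kifc2*, *Kifc3* and *Kifc5b*) were not called. Their log2 fold changes ran from -0.49 in *Kif24*, a centriolar depolymerase, to 0.26 in *Kif27*. *Kif26b*, an atypical kinesin, was named after its values were seen: it read 428.6 and 295.0 in control and 321.6 and 312.5 in *Dnmt1* KO (-0.17 ± 0.14, limma adjusted p = 0.474), and it was called lower without control replicate 2 (-0.43, adjusted p = 0.0339) but stood at 0.10 without control replicate 1. *Kif7*, the ciliary regulator of Hedgehog signalling, read 102.0 and 127.6 in control and 76.0 and 88.5 in *Dnmt1* KO (-0.47 ± 0.19, limma adjusted p = 0.105). The 7 members under the filter had a mean below 10. *Kif2b* and *Kif28* were listed at 0 in every library, which at a floor of 3 reads allows up to 2.68 to 3.28 normalized counts, depending on the library. *Kif12*, *Kif19b* and *Kif16bos*, the last an antisense transcript at the *Kif16b* locus and not a motor, had reads in *Dnmt1* KO replicate 1 only, at 1.97, 0.986 and 0.986. *Kif19a* read 0.895 and 4.08 in control and 0 and 1.09 in *Dnmt1* KO. *Kif9*, a motor of motile cilia, read 9.84 and 7.15 in control and 2.96 and 9.83 in *Dnmt1* KO. These 7 members were not compared.

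Levels were compared between genes per kb of transcript, using the annotated transcript with the longest coding sequence. Transport and microtubule-growth motors led, with *Kif21b* at 1210 normalized counts per kb over the 4 libraries, ahead of *Kif5c* at 980. *Kif3a* (632), *Kif1b* (581) and *Kif1a* (557) followed, and neighbours among these 3 overlapped between libraries, *Kif1a* standing above *Kif1b* in control (549 against 541) and below it in *Dnmt1* KO (565 against 621). The value of *Kif3a* depends on the transcript, since its longest annotated one gives 247 and moves it from rank 3 to rank 8, while *Kif21b* and *Kif5c* keep ranks 1 and 2 (790 and 699). Next were *Kif5a* (408), *Kif3c* (376) and *Kif21a* (357), among which neighbours overlapped. Their order differed by genotype, *Kif21a* being highest of the 3 in control (399 against 380 and 343) and lowest in *Dnmt1* KO (315 against 436 and 409). Then came *Kif5b* (236) and *Kif2a* (202), which did not overlap with each other. *Kif11*, the mitotic kinesin with the highest mean, stood 12th at 88.9 per kb (11th in control alone), above 67.9% of all tested genes. Its libraries overlapped with those of *Kif22*, the next in order. *Kif18a*, at 8.85 per kb, stood above 14.9% of tested genes. At the bottom were *Kif24* (7.63), *Kif27* (4.47) and *Kif6* (2.91). Summed per kb, mitotic kinesins made up 11.21% and 11.39% of the kinesin level in control and 7.485% and 7.421% in *Dnmt1* KO.

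**Figure D5:**
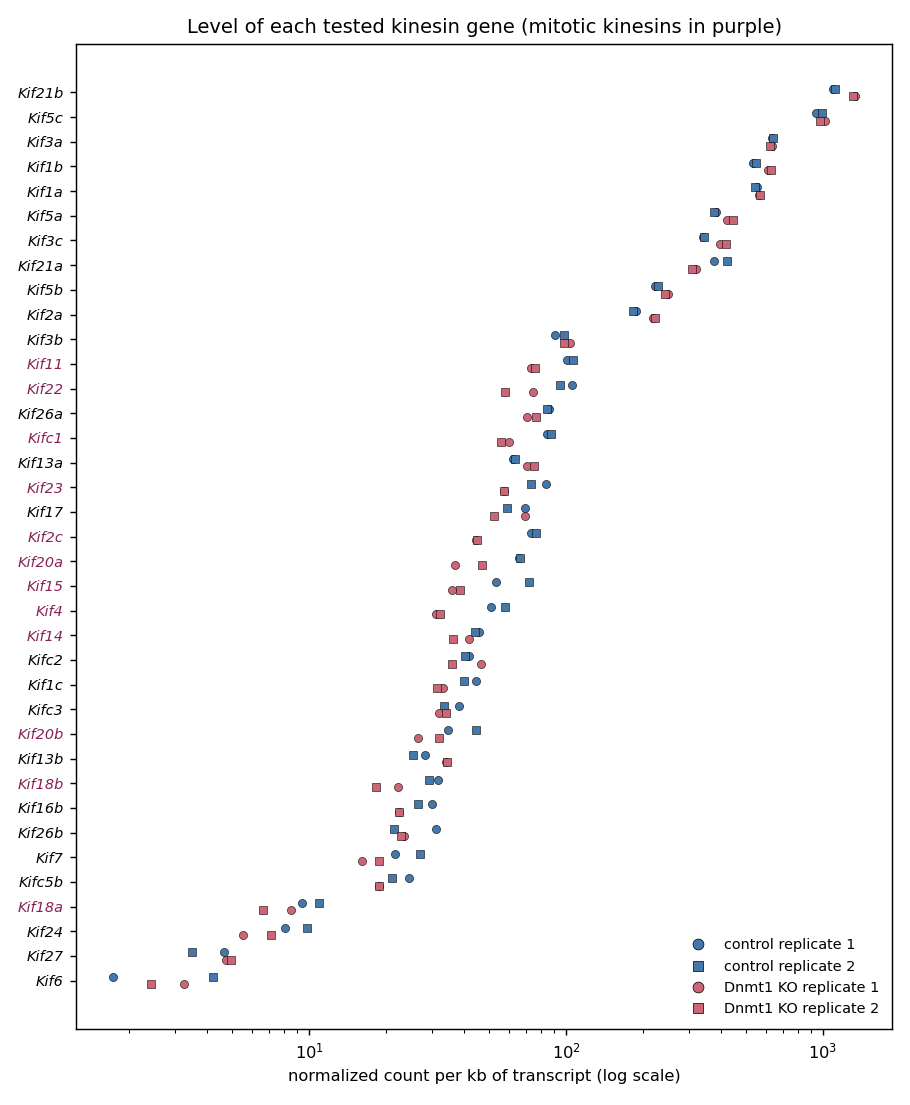
Normalized count per kb of transcript (x axis, log scale) of the 37 tested kinesins in each library, ordered by their mean, with circles for replicate 1, squares for replicate 2, blue for control and red for *Dnmt1* KO. By the mean over the 4 libraries, the mitotic kinesins, named in purple, rank below 11 others. Within a library, *Kif11* lies among those others in both controls and *Kif22* in control replicate 1.

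Mitotic and other kinesins also differed in transcript make-up. The mitotic transcripts had a median length of 4315 bases and a GC content of 47.2%, and the others 6767 bases and 52.5%. Library values in this kind of data can follow both properties, so a smooth trend over them was removed from each library as an alternative. The mitotic median then was -0.55 and 9 genes were still called lower, *Kif20b* entering and *Kif18b* leaving (adjusted p = 0.0729). Of the others 1 was then called lower and 6 higher. Over all 14285 genes in that fit, 1102 were called lower and 1485 higher, and the median log2 fold change was 0.04. With DESeq2 on the recovered reads, *Kif22*, *Kif18b*, *Kifc1*, *Kif23*, *Kif1c* and *Kif13b* were no longer called (adjusted p 0.0687, 0.233, 0.0726, 0.140, 0.193 and 0.241).

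A further pair of gene groups works with the transport kinesins. Of 27 tested light chains and cargo adaptors, 2 were called lower and 2 higher, near the 8.99% and 8.3% of all genes, and the median log2 fold change was 0.05. *Hap1*, an adaptor of kinesin-1 and dynein, fell from 1363 and 1449 to 1046 and 917 (-0.52, limma adjusted p = 0.00017). *Arl8b*, the lysosomal GTPase that recruits kinesins, read 510.1 and 449.2 in control and 315.6 and 393.3 in *Dnmt1* KO (-0.44, limma adjusted p = 0.0140). It was not called without control replicate 1 (-0.35, adjusted p = 0.126) or *Dnmt1* KO replicate 1 (-0.28, adjusted p = 0.118), nor with DESeq2 (adjusted p = 0.0529). *Ppfia2*, a liprin that binds *Kif1a*, rose from 748.1 and 861.6 to 989.3 and 995.4 (0.31, limma adjusted p = 0.0140), but not without control replicate 1 (0.20, adjusted p = 0.126). *Klc1*, the most abundant light chain, read 4998 and 4809 in control and 4700 and 4803 in *Dnmt1* KO and was not called (-0.05, limma adjusted p = 0.551).

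Dynein, which moves the other way along microtubules, had 3 of 27 genes called lower and 2 higher, again near the 8.99% and 8.3% of all genes (median log2 fold change 0.04). *Dync1h1*, its heavy chain and the most abundant gene of the list, rose from 12633 and 12714 to 15898 and 16583 (0.36, limma adjusted p = 8.87e-06). *Nde1*, a dynein regulator with a role in progenitor division, fell from 180.8 and 206.2 to 138.1 and 123.5 (-0.56, limma adjusted p = 0.0150). That call was lost without control replicate 2 (adjusted p = 0.140), without *Dnmt1* KO replicate 2 (adjusted p = 0.0581) and with DESeq2 (adjusted p = 0.108). *Dynll1*, a light chain, read 1068 and 957 in control and 850 and 876 in *Dnmt1* KO (-0.23, limma adjusted p = 0.0481). With the length and GC trend removed it stood at 0.02 (adjusted p = 0.910), with DESeq2 its adjusted p was 0.173, and the call held only without control replicate 2, being lost without control replicate 1 (adjusted p = 0.284), *Dnmt1* KO replicate 1 (0.153) or *Dnmt1* KO replicate 2 (0.0707).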

How the data were processed

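RNA-seq of sorted cells from 4 libraries was used, grouped and numbered as in the labels. According to the submitters' notes and the study's methods, libraries were made with a stranded total RNA kit after rRNA depletion, trimmed with Trim Galore, aligned to GRCm39 with STAR and quantified with Salmon. The authors deposited a signal per gene and library, namely counts normalized with DESeq2 1.32.0 (R 4.3.2); whether counting used strand is not given in the sources used here. Whole reads were recovered from all 89965 values above 0 (100%, within 0.0001 of a read).

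Members and gene lists were chosen with earlier results of these data known. The main test was limma 3.58.1 with a variance trend on log2(normalized count + 1), over 14323 genes with a mean of at least 10, two-sided, with Benjamini-Hochberg adjustment. It was also run on simulated counts that gave every gene the same dispersion, so that run does not test differences in spread between genes. Alternatives were pseudocounts of 0.5 and 10, filters of 1 and 50, TMM, no variance trend, edgeR 4.0.16 and DESeq2 1.42.0 on recovered reads, removal of a length and GC trend (spline with 5 degrees of freedom, 14285 genes), a replicate block, and leaving out each library. Named were all mitotic kinesins, every other kinesin called, the 8 uncalled ones with the highest level per kb, members under the filter, the 3 most changed called genes of each partner list with a mean of at least 100, and the most abundant gene of each marker list. Other genes are named as exceptions or examples. Positions are from a GRCm39 annotation and promoters from RefSeq (GRCm38.p6). Lengths by longest transcript, the order of levels within a genotype, the 60-base limit for motifs and the count of CCAAT before CHR were added after the data were seen. Depth allowed 3 reads, or 2.68 to 3.28 normalized counts, as the floor of a library; this covers counting error only.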

Additional observations from a re-analysis of the deposited data

How the results depend on the processing

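The 9 mitotic kinesins called lower stayed at 9 with both other pseudocounts, both other filters, TMM, edgeR and the length and GC trend removed. DESeq2 called 5 of them. Over all tested genes it called 687 lower and 640 higher, where the main test called 1287 and 1189. Limma without the variance trend called 0, where the smallest adjusted p over all genes was 0.0592 and 9 mitotic kinesins had an unadjusted p under 0.05. Calls over all genes also fell in every fit that left out a library. Leaving out 1 library gave 6 (without control replicate 2) to 9. No mitotic kinesin was called higher in any fit. Of the other kinesins, the 2 called lower became 1 with DESeq2 and with the trend removed, 0 without the variance trend, and 1 to 2 without a library. The 6 called higher became 5 with DESeq2 and with a mean of at least 1, 0 without the variance trend, and 3 (without control replicate 2 or *Dnmt1* KO replicate 2) to 5 without a library. Over all 37 tested kinesins, 5 uncalled ones and 0 called ones changed sign in a fit. *Kif3a* was at 0.044 with the trend removed and ran from -0.028 to 0.0029 when 1 library was left out, and *Kif17* ran from -0.282 to 0.114. *Kif26b*, *Kifc2* and *Kif6* were the others. The cause of these changes was not tested. With 1 library left in a genotype, it is assumed to vary like the other genotype. The replicate block called 10 mitotic kinesins lower (*Kif20b* added), 2 others lower and 6 others higher. Over all genes it called 1555 lower and 1402 higher. The replicate numbers are not stated to pair libraries, and same-numbered deviations had a correlation of -0.0847 over 14323 genes.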
